A study of Quercus robur with 6 samples.

Results

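In roots of pedunculate oak (Quercus robur), cleavage calls are described here for the conserved miRNA names left when 12 others were set aside. These were miR162, miR171, miR398, miR408, miR530, miR535 and miR2111. They were taken from 6 degradome tables as every row whose miRNA name began with qrb- and was none of 12 other conserved names (miR156, miR157, miR159, miR160, miR164, miR166, miR167, miR172, miR319, miR390, miR393 and miR396). This gave 7 of the 27 miRNA names, 13 of the 89 sites and 26 of the 231 calls. A site is a miRNA name paired with one slice position of a transcript, and a call is such a site in one library. Each of the 13 sites lay on a transcript of its own, and none of these transcripts was called with any other miRNA name. This is not particular to them, as the 89 sites of the whole series lay on 85 transcripts.

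In degradome sequencing the 5′ ends of RNA fragments without a cap are read, so that a transcript cut by a miRNA-guided complex gives a pile of reads starting at the cut. Of the 6 libraries, 3 came from well-watered wild-type seedlings (control) and 3 from wild-type seedlings exposed to drought. Each library combined tips of taproots and lateral roots. All plants had 8 weeks of acclimatization with full watering, and the drought plants then spent 4 weeks at a soil moisture of 25% of that in control plants. The library titles do not say whether the seedlings were raised in containers or sown in rhizotrons, so neither condition can be tied to a cultivation method, and the tables list slice sites without expression values, so root identity could not be checked against marker genes.

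In land plants a miRNA is loaded into an ARGONAUTE protein, which cuts a well-matched transcript between the target bases opposite miRNA bases 10 and 11. miR162 is known for its cut in the mRNA of the DICER-LIKE enzyme that makes miRNAs, miR171 for GRAS transcription factors of the HAIRY MERISTEM group, which maintain meristems, and miR398 for copper/zinc superoxide dismutases. miR408 is known for plantacyanin and laccase mRNAs under copper shortage, miR535 for SPL transcription factors in several species, and miR2111 for F-box/kelch-repeat mRNAs, the target through which this shoot-made miRNA sets nodule number in Lotus roots. By general knowledge, the strands deposited under miR171, miR408, miR530 and miR535 resemble the strand that other plants usually discard from the hairpin, whereas those of miR162, miR398 and miR2111 resemble the strand they keep. The arm is not stated in the tables and was not tested here.

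The 7 names stood for 9 miRNA sequences, printed here because the pairing of each site depends on the isoform. They are written 5′ to 3′ with the seed (bases 2 to 8) in capitals.
miR162: uCGAUAAAccucugcauccag
miR171, isoform called on Qrob_T0080450.2 and Qrob_T0496000.2: cGUGAUAUugauuuggcucuuc
miR171, isoform called on Qrob_T0550890.2: uGUGAUAUugguacggcucguc
miR171, isoform called on Qrob_T0064440.2: cGAUGUUGgugagguucaauc
miR398: uGUGUUCUcaggucgccccug
miR408: cGGGGAACaggcagagcaugg
miR530: aGGUGCAGguacagacgcagg
miR535: gUGCUCGUucucguugucaug
miR2111: uAAUCUGCauccugaggucua
Only the first pair of miR171 isoforms shared a seed, so the 9 sequences held 8 different seeds. The isoforms of that pair differed at 5 bases, written as C1U, A11G, U13A, U14C and U20G with the isoform on Qrob_T0080450.2 given first and positions counted from its 5′ end.

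The target stretches of the 6 sites called in more than 1 library, and of the 2 sites that reached the strongest evidence class, are printed next so that their pairing can be read against these miRNAs. They run 5′ to 3′ along the transcript, and the capital marks the slice position, the first base of the fragment left after the cut. Positions start at base 1 of each transcript in the longest-transcript set of the PM1N oak genome, and whether a position is coding or untranslated is not given in the sources used here.
miR2111 site, 231 to 251 of Qrob_T0759270.2, slice position 242: uguaccucaggAugcagauua
miR162 site, 353 to 377 of Qrob_T0488670.2, slice position 368: cuggaugcaacuggaGguuuaugga
miR162 site, 1596 to 1616 of Qrob_T0632290.2, slice position 1607: cuggugcggguGguuuaucga
miR408 site, 465 to 485 of Qrob_T0349780.2, slice position 476: ccguguucugcCuguucuuau
miR535 site, 205 to 225 of Qrob_T0712850.2, slice position 216: ggcgacgacgaGuucgggcac
miR171 site, 685 to 707 of Qrob_T0080450.2, slice position 697: gaagagcccgauCaauguugaug
miR171 site, 241 to 261 of Qrob_T0064440.2, slice position 252: ucgagaaccucAccaaccucg
miR530 site, 149 to 169 of Qrob_T0755640.2, slice position 161: ccugugcgcuguGccucaccu
In all 13 sites the slice position lay opposite miRNA base 10. The slice position of an alignment is defined that way, so this is not evidence of cutting. All 7 seed bases were in Watson-Crick pairs in 3 of the 13 sites, those of miR2111, miR398 and miR162 on Qrob_T0632290.2. Bases 9 to 11, which flank the cut, were all so paired in 8 of the 13.

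Of the 13 transcripts, 5 carry a protein name in the single gene list of the study that was searched, and 8 were not named there. The study's other lists were not searched, so a missing name does not show that the study left a transcript unnamed. The named ones were an F-box/kelch-repeat protein (miR2111), an O-fucosyltransferase 16-like protein (miR408), the transcription factor KUA1 and a dehydrin Xero 2-like protein (both miR171) and SULFUR DEFICIENCY-INDUCED 1 (miR530). The F-box/kelch-repeat transcript was the only one of these 5 whose name matched the target family known for its miRNA.

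The number of calls for the 7 names was 4 in control replicate 1, 8 in control replicate 2 and 2 in control replicate 3, and it was 5, 5 and 2 in the corresponding drought libraries. The groups overlapped, with the highest and one of the lowest libraries both in control. The control mean was 4.67 ± 3.06 and the drought mean 4.00 ± 1.73 (SD, n = 3 each). The drought mean was thus -0.667 calls from the control mean, which was smaller than either SD. Without control replicate 2 the difference was 1.00 call, without control replicate 3 it was -2.00 and without drought replicate 3 it was 0.333, so its direction depended on single libraries. As a share of all calls in a library, the 7 names averaged 11.3% ± 6.20 over control and 10.9% ± 5.08 over drought libraries (SD, n = 3 each), between 5.26% in drought replicate 3 (exact 95% Clopper-Pearson interval 0.644% to 17.7%) and 17.8% in control replicate 2 (8.00% to 32.1%). Read counts are not in the tables, so the depth behind each call is unknown, and these intervals cover counting error of the calls alone.

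Within each library CleaveLand4 sorted calls into 5 evidence classes, from category 0 (the slice position is the single highest read pile of its transcript) through category 1 (a shared maximum) and category 2 (under the maximum yet above the usual level of the transcript) to category 3 (at or under that level, with more than 1 read) and category 4 (1 read). Category 3 held 11 of the 26 calls (42.3%), category 2 held 8, category 4 held 4, category 0 held 2 and category 1 held 1. For the 12 other conserved names the order was different, with 79 of 155 calls (51.0%) in category 0 and 6 (3.87%) in category 3. The 2 category 0 calls came from control replicate 2 (1 of its 8 calls, 12.5%, exact 95% interval 0.316% to 52.7%) and drought replicate 1 (1 of 5, 20.0%, 0.505% to 71.6%). Category 0 was not seen in the remaining libraries, where the 2 to 5 calls allow a share of up to 52.2% in drought replicate 2, 60.2% in control replicate 1 and 84.2% in control replicate 3 and drought replicate 3 (upper exact 95% bounds), while among the other conserved names it ran from 42.3% to 56.0% of calls in the 6 libraries.

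The alignments were also weaker than those of the other conserved names in every library. The Allen score is a mismatch penalty in which 0 is a perfect match. Its median over the calls of the 7 names was 6.75, 6 and 4.75 in the control libraries, in replicate order, and 6, 5.50 and 6.25 in the drought libraries, against 3.25 in control replicate 1 and 3.50 in each of the 5 other libraries for the other conserved names. The mean of the 6 differences was 2.42 ± 0.753 (SD, n = 6 libraries), higher for the 7 names in 6 of 6. With calls of categories 0 to 2 alone this difference was 1.05. The MFE ratio, the pairing energy relative to a perfect duplex, for which 1 is best, was lower in 6 of 6 libraries, by a mean difference of -0.0842 ± 0.0279 (SD, n = 6 libraries). These are descriptions with no test, because the libraries share sites and the names were grouped with earlier results known. Over sites, 1 of 13 had an Allen score of at most 4, the miR2111 site, against 28 of 45 sites (62.2%) of the other conserved names.

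miR2111 had the site with the best alignment and the most libraries. The call at slice position 242 of Qrob_T0759270.2, the F-box/kelch-repeat transcript, scored 3 by Allen score and 0.873 by MFE ratio, the best of the 13 sites on both measures. Its 18 bases from the 5′ end of the miRNA were all in Watson-Crick pairs, and 3 bases at the 3′ end were unpaired. The p-value, the chance that a position of the same category falls on the slice position of an alignment ranked as high, was 0.0403, 0.0424 and 0.0398 in the 3 control libraries in replicate order, and 0.0375 and 0.0460 in drought replicates 1 and 2. The site was in category 2 in each of these 5 libraries and was not listed for drought replicate 3. All 5 p-values were above 0.0282, the median over the 26 calls, so by p-value they were among the weaker calls, and 2 other sites reached category 0.

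The 5 p-values of the miR2111 site differed only through the share of transcriptome positions in category 2, because its rank among the alignments of miR2111 worked out as 3 in all 5 libraries. That share was 1.36%, 1.43% and 1.35% in the control libraries and 1.26% and 1.56% in drought replicates 1 and 2. It was 1.92% in drought replicate 3, where an alignment of rank 3 in category 2 would have had a p-value of 0.0566, above the limit of 0.05 for listing. The same category and rank could thus not have been listed there, and whether that library had reads at the position is not given. With the density of drought replicate 3, the highest, applied to all libraries, 0 of the 5 calls of this site would have been listed. Presence in 3 of 3 control and 2 of 3 drought libraries had p = 1 by Fisher's exact test, two-sided (adjusted p = 1 over all 89 sites).

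miR162 had 2 sites, each called in 3 libraries and with both conditions among them. The site at slice position 368 of Qrob_T0488670.2 (Allen score 6.5, MFE ratio 0.779) was in category 3 throughout, with p-values of 0.0135 in control replicate 2, 0.0113 in control replicate 3 and 0.0197 in drought replicate 3. The 3′ part of miR162 reached its partner only across 4 looped-out target bases, with 19 Watson-Crick pairs and 1 G:U pair in all. Its rank worked out as 2 in all 3 libraries, from 2 to 7 category 3 calls a library, and at this rank category 2 calls would have passed the limit in each of the other libraries (p-value 0.0271 in control replicate 1, 0.0251 and 0.0309 in drought replicates 1 and 2).

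The other miR162 site, slice position 1607 of Qrob_T0632290.2, had the Allen score 4.5 and the MFE ratio 0.755. It was in category 3 in control replicate 2 (p-value 0.0201) and drought replicate 2 (p-value 0.0278), and in category 2 in drought replicate 1 (p-value 0.0496, the highest p of the 26 calls). Its duplex held a perfectly paired seed but 1 bulged target base exactly between miRNA bases 10 and 11, the only one of the 13 sites with a bulge there. Its rank worked out as 3 in control replicate 2 and as 4 in both drought libraries, so the rank of an alignment was not always the same across libraries. In category 2, rank 3 would have passed the limit in control replicates 1 and 3 (p-value 0.0403 and 0.0398) and rank 4 would not (p-value 0.0534 and 0.0528). In drought replicate 3 neither rank would have passed in category 2 (p-value 0.0566 and 0.0748). In category 3 both ranks would have passed in control replicates 1 and 3 and drought replicate 3. At rank 4 the category 3 p-value was 0.0275, 0.0225 and 0.0391 in that order, with densities from 1, 2 and 4 calls. Neither miR162 transcript had a protein name in the gene list that was searched, so whether either is the DICER-LIKE target was not settled here. miR162 had 0, 2 and 1 sites in the control libraries and 1 in every drought library, a difference of 0.

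miR408 had a single site, at slice position 476 of the O-fucosyltransferase 16-like transcript Qrob_T0349780.2 (Allen score 6, MFE ratio 0.762). It was in category 4 in control replicate 1 (p-value 0.0242) and drought replicate 3 (p-value 0.0327) and in category 2 in drought replicate 2 (p-value 0.0156). The duplex had 15 Watson-Crick and 4 G:U pairs, and the 2 bases at the 5′ end of miR408 were unpaired. Its rank was 1 in each call. At this rank even category 4 would have passed in control replicates 2 and 3, which lacked the call (p-value 0.0224 and 0.0229). In drought replicate 1, also without the call, category 2 would have passed (p-value 0.0126), and category 4 held no calls there. These values hold only if the rank was the same in those libraries. Counts of 1, 0 and 0 in control and 0, 1 and 1 under drought overlapped (difference 0.333 sites, two-sided exact permutation test, p = 1).

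miR535 had 2 sites. Slice position 216 of Qrob_T0712850.2 was in category 3 in control replicate 1 (p-value 0.0275), control replicate 2 (p-value 0.0268) and drought replicate 2 (p-value 0.0278). Its Allen score of 8.5 was the second highest of the 13 sites. The duplex had 14 Watson-Crick pairs and 2 G:U pairs, with miRNA bases 8 and 9 mismatched, next to paired base 10 at the cut. Slice position 1334 of Qrob_T0095890.2 (1323 to 1342, Allen score 5, MFE ratio 0.805) was called in control replicate 2 alone, in category 4 with a p-value of 0.0442. Site counts of miR535 were 1, 2 and 0 in control and 0, 1 and 0 under drought, the largest difference of the 7 names at -0.667 sites and still smaller than the control SD of 1.00 (two-sided exact permutation test with p = 0.7 and, over the 27 names, adjusted p = 1). It was -0.167 without control replicate 2, smaller than the 0.5 then found for miR162 and miR171, and -1.17 without control replicate 3.

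miR171 had the most sites of the 7 names, 4, of which 1 was called in more than 1 library. Slice position 697 of Qrob_T0080450.2, the KUA1 transcript, coding for a MYB-related transcription factor that promotes leaf cell expansion in Arabidopsis, was called in control replicate 2 (p-value 0.0463) and drought replicate 1 (p-value 0.0339), both in category 3 with an Allen score of 6.5. It had 17 Watson-Crick and 4 G:U pairs, and 4 of its 7 seed bases were in Watson-Crick pairs. The remaining sites were each called in 1 library. On the dehydrin Xero 2-like transcript Qrob_T0496000.2 (267 to 289, slice position 280) the call was in control replicate 1, in category 1 with a p-value of 0.0419, the Allen score 7.5 and the lowest MFE ratio of the 13 sites, 0.670. Dehydrins are proteins that accumulate in plant cells during water loss. This transcript had no call in any drought library, nor in control replicates 2 and 3. Its rank worked out as 86, and at this rank category 2 or 3 would not have been listed in any library. Its absence from a library is thus hardly informative.

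The other single miR171 calls were in drought libraries. The isoform with its own seed had a category 0 call at slice position 252 of Qrob_T0064440.2 in drought replicate 1, with a p-value of 0.00396, the lowest p of the 26 calls, the Allen score 6 and the MFE ratio 0.773. The last isoform was called at slice position 141 of Qrob_T0550890.2 (129 to 150) in drought replicate 2, in category 4 with a p-value of 0.0287, the Allen score 5.5 and the MFE ratio 0.772. miR171 thus had 1, 1 and 0 sites in control and 2, 1 and 0 under drought (difference 0.333 sites, two-sided exact permutation test, p = 1), and without drought replicate 1 the difference was -0.167.

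miR530 and miR398 gave calls in single libraries only. For miR530 these were slice position 161 of Qrob_T0755640.2 in control replicate 2, in category 0 with a p-value of 0.00656 (Allen score 5.5, MFE ratio 0.678), and slice position 747 of Qrob_T0004940.2 (735 to 756) in drought replicate 1, in category 2 with a p-value of 0.0375 (Allen score 6, MFE ratio 0.715). The latter is the SULFUR DEFICIENCY-INDUCED 1 transcript, which in Arabidopsis rises when sulphur is short. miR398 was called once, at slice position 59 of Qrob_T0485210.2 (48 to 75) in control replicate 2, in category 3 with a p-value of 0.0268. Its Allen score of 16 was the highest of the 13 sites although 20 of its 21 bases were in Watson-Crick pairs. The reason was that 8 target bases were looped out opposite miRNA base 9, next to paired base 10 at the cut.

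No member separated control from drought. Of the 13 sites, 6 were called in both conditions, 4 in control only and 3 under drought only, and every one of these 7 condition-specific sites rested on 1 library. None of the 13 filled every library of one condition while missing from the other condition, whereas 4 of all 89 sites (4.49%) did so. The Fisher's exact test gave p = 1 for each of the 13 sites, and over all 89 sites 0 (0%) had an adjusted or an unadjusted p under 0.05. Among names, none of the 7 had counts that did not overlap between conditions, against 3 of all 27 names (11.1%). Over the 27 names 0 (0%) had an adjusted or an unadjusted p under 0.05 in the two-sided exact permutation test, whose smallest possible p with 3 libraries against 3 is 0.1, so these comparisons could not have passed 0.05. They do not show that the conditions were alike.

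Recurrence was lower than among the other conserved names. This is a description with no test, because the names were grouped with earlier results known and recurrence is itself a count of calls. Single-library calls made up 7 of the 13 sites (53.8%), while 1 site recurred in 2 libraries, 4 in 3, 1 in 5 and none in all 6, whereas 16 of the 45 sites (35.6%) of the other conserved names were called in all 6. Over all 89 sites, however, 42 (47.2%) were called in 1 library, and for the study-defined miRNAs 22 of 31 (71.0%) were, with none in all 6. Control replicate 2 alone held 8 of the 13 sites, 3 of them called nowhere else.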

How the data were processed

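Degradome libraries of combined taproot and lateral root tips (3 control, 3 drought) were analysed from the call tables. The authors, per the file headers, used CleaveLand4 4.5 for each library against the longest PM1N transcripts with 1 shared miRNA alignment file, a p-value limit of 0.05 and categories up to 4, and the run date was Feb 23 for control replicates 1 to 3 and drought replicate 1 and Feb 28 for drought replicates 2 and 3. The deposited p-value is not corrected over miRNAs or categories. The deposited MFE ratio is a fraction of the perfect-duplex energy. The deposited Allen score and category were used unchanged, as were transcript positions and sequences. Only calls past the limit are listed, with no read counts, so depth is unknown.

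The members and lists were chosen with earlier results of these data known. Groups came from the sample titles. Category densities were taken as the largest step of which all −ln(1 − p) values of a library and category were whole multiples (tolerance 0.001 per unit of divisor), and ranks as the multiples. Steps from fewer than 5 calls were divided by the integer giving the closest ranks for shared alignments in the library with most calls of that category. Site counts per name were compared by two-sided exact permutation tests over 20 assignments, and presence by two-sided Fisher's exact tests, with Benjamini-Hochberg adjustment over all 27 names and all 89 sites. Every site of the 7 names is named. Protein names came from a single gene list of the study, and its other lists were not searched. Alternatives tried were categories 0 to 2, a p-value limit of 0.01, an Allen score of at most 4, one common category density, merged target sequences, each site counted once, a replicate block and each library left out. Scripts were tested on simulated data. Python 3.11.15, numpy 2.4.6, pandas 2.3.3 and scipy 1.17.1 were used.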

Additional observations from a re-analysis of the deposited data

How the results depend on the processing

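No name and no site had an adjusted p under 0.05 in any alternative run, which the design could not have allowed, so only values are compared. The difference in calls between drought and control moved by less than the replicate SD in each alternative, but it was 0 with the p-value limit of 0.01 and 0.333 with categories 0 to 2. It was also 0.333 with one common category density when steps from few calls were left unresolved, an alternative chosen after seeing the data. Leaving out 1 library gave -2.00 to 1.00 calls. The p-value limit of 0.01 kept 2 of the 26 calls, the Allen score of at most 4 kept the 5 calls of the miR2111 site, categories 0 to 2 kept 11 calls and the common density 16, among them none of the miR2111 site. Against the other conserved names, the Allen score difference was 1.05 with categories 0 to 2, and an Allen limit of 4 gave 0.15. The MFE ratio difference was -0.118 with the limit of 0.01, and the Allen limit gave -0.0217. The category 0 share difference, -45.5 percentage points over all calls, became 12.2 with the limit of 0.01, which left 1 call in each of 2 libraries, both in category 0. It was -34.8 with the common density and -27.1 with each site counted once. The Allen limit acts on the compared score itself and left only the miR2111 site on the members' side. The cause of the other changes was not tested. Without 1 library in turn these differences ran from 2.20 to 2.65 for the Allen score, from -0.0943 to -0.0774 for the MFE ratio and from -48.6 to -43.4 for the share. Among single names, the miR171 difference of 0.333 ran from -0.167 without drought replicate 1 to 0.833 without drought replicate 3. Leaving out control replicates moved the miR162 difference from 0 to -0.5 (replicate 1) and 0.5 (replicate 2). Libraries that share a replicate number did not deviate together over the 89 sites (correlations -0.106, -0.0456 and -0.141 for replicates 1, 2 and 3). With 3 libraries in each condition these values cannot show whether a replicate number marks a shared batch. With the replicate block the difference in calls stayed at -0.667, and 0 names and 0 sites were called.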

Other observations

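A study-defined miRNA outside the 7 names, cGUGAUAUugguucggcucuuc, differed from the miR171 isoform called on Qrob_T0080450.2 and Qrob_T0496000.2 at 2 bases (A11G and U14C, isoform base first, counted from the 5′ end) and shared its seed, in capitals. It had 1 call, in control replicate 1, at slice position 1633 (1621 to 1642) of Qrob_T0267250.2, in category 4 with a p-value of 0.0479, the Allen score 7 and the MFE ratio 0.743. None of the sites called with miR171 lay on that transcript.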
